A study of Mus musculus with 179 samples.

Results

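The oxytocin and vasopressin system was followed through 4 genes. Oxt (ENSMUSG00000027301) and Avp (ENSMUSG00000037727) encode the peptide precursors, and Oxtr (ENSMUSG00000049112) and Avpr1a (ENSMUSG00000020123) encode the oxytocin receptor and the vasopressin receptor V1a. The genes were taken by symbol from the table of RPKM values (reads per kilobase of exon, scaled to library size) and by Ensembl identifier from the tables of normalised reads. These were 4 of 32421 genes in the table of all female, male prefrontal and male hippocampal libraries, and 4 of 37810 genes with values in male ventral tegmental area. The male nucleus accumbens table used here held 2 of them, Oxt and Avp, among 16239 genes, so Oxtr and Avpr1a were not analysed in male nucleus accumbens.

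Oxytocin and vasopressin are closely related peptide hormones of the posterior pituitary, made mainly by magnocellular neurons of the hypothalamus. Each is cut from a precursor that also holds its neurophysin, the carrier that packs the hormone into secretory granules. Axons and dendrites of these and other hypothalamic neurons also release the peptides within the brain, where Oxtr and Avpr1a act mainly through Gq proteins and phospholipase C. Each peptide can bind the other's receptor. In rodents, oxytocin acting in the ventral tegmental area and nucleus accumbens is known for its part in social reward, and hippocampal Oxtr is known from interneurons and from pyramidal cells of field CA2.

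The study sequenced poly-A RNA of brain tissue from adult C57BL/6 or C57Bl6/j mice, as the labels spell the strain, that had met stress early in life, in adulthood, at both times or at neither. Early life stress (ELS) covered postnatal days 10 to 20 in the female groups and in male prefrontal cortex and hippocampus. Male nucleus accumbens had ELS groups of days 10 to 20 and of days 2 to 12, and the labels give no days for male ventral tegmental area. Adult stress was chronic social defeat in males and subthreshold variable stress (STVS) in females, and tissue was taken 24 hours after behavioural testing. Each sex had ELS mice with adult stress, standard-reared mice with adult stress, ELS controls and standard controls. Ventral tegmental area (VTA), nucleus accumbens (NAc) and prefrontal cortex (PFC) of females had 6, 5, 5 and 6 libraries of these groups, in that order. Male PFC and hippocampus (HIP) had 6 of each, and male VTA had 6, 6, 4 and 4. Male NAc had 6 libraries of ELS P10-20 with defeat, 5 of ELS P2-12 with defeat, 6 of standard rearing with defeat, and 4 each of ELS P10-20 controls, ELS P2-12 controls and standard controls. Each male VTA and male NAc library pooled tissue of 3 mice, and the others came from 1 mouse each. The labels do not say which libraries share a mouse across regions, and p-values measure the spread between these libraries.

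Depth was taken as the reads counted over the genes of each table. It ran from 13601728 reads (the shallowest male NAc library) to 42746141 reads (the deepest male HIP library). The male NAc sums covered 16239 genes and the other sums 32421. Depth was unknown for male VTA. Female region labels went with their markers. The summed level of 8 midbrain dopamine genes was 33734 to 145808 normalised reads in female VTA, against 1225 to 2252 in female NAc and 763 to 1360 in female PFC. In 14 libraries, doubted here, genes of the sexes or of choroid plexus lay outside limits set per sex or per set, not per group. Male VTA was not checked in this way. The libraries labelled female NAc standard STVS 3 and female PFC standard STVS 3 had 100.9 and 166 normalised reads of Xist. Xist is the RNA of the inactive X chromosome, and the female libraries not doubted had at least 11313. The same libraries had 1.886 and 0 of Ddx3y, a Y chromosome gene, where the doubted male libraries had at least 1599. Of the 6 doubted male HIP libraries, 3 were standard controls, with 171500, 250300 and 214600 normalised reads of Ttr, the choroid plexus transthyretin, against at most 567 in the HIP libraries not doubted. Results that turn on these libraries are given with and without them.

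The peptide genes lie tail to tail on mouse chromosome 2 (build GRCm38.p6, RefSeq). Oxt spans 130574519 to 130577054 on the plus strand and Avp spans 130580620 to 130582588 on the minus strand, with 3565 bases between them. The receptor genes lie apart from them, Oxtr on chromosome 6 from 112473683 to 112491035 on the minus strand and Avpr1a on chromosome 10 from 122448499 to 122453453 on the plus strand. The stretch that encodes the hormone is shown because it encodes the hormones themselves. It holds 9 codons, and the capitals mark the 5 bases at which Oxt and Avp differ.
Oxt hormone codons: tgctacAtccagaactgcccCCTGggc
Avp hormone codons: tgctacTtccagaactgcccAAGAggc
The neurophysin stretch is shown next because it decides which reads can be told apart. Exon 2 has 202 bases in each gene, of which 193 (95.5%) are identical. The longest identical run has 127 bases, 2 at the end of exon 1 and 125 in exon 2.
Oxt and Avp shared run: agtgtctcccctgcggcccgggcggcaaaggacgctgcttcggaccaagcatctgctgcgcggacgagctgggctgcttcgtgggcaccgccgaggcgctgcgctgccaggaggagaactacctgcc
Of the 438 stretches of 100 bases that the spliced Oxt exons hold, 28 are also in Avp, which holds 478. A read of 100 bases, the length the labels give, could not be assigned to either gene from such a stretch. The sources used here do not say how the authors' counting treated these reads, so the split between Oxt and Avp is uncertain for them.

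The promoters of the peptide genes are shown because the data hold libraries in which Oxt and Avp are high together. The part of promoter sequence in this was not tested. They are the 250 bases before the start that the RefSeq promoter table (GRCm38.p6) uses for each gene, read along the gene's own strand. For Oxt that start lies inside the span given above. Capitals mark GGTCA on either strand, the core letters bound by many nuclear receptors.
Oxt promoter, chr2:130575919-130576168, plus strand: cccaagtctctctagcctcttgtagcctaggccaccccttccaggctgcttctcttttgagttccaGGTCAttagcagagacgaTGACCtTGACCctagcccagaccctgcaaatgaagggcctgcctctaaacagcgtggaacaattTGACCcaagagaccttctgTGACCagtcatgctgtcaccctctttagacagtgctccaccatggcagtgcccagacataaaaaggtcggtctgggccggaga
Avp promoter, chr2:130582589-130582838, minus strand: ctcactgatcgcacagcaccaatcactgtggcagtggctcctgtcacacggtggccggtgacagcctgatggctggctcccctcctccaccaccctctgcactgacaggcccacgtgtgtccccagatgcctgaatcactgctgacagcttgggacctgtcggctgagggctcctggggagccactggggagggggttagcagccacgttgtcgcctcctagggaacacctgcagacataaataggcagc
GGTCA or its reverse complement stood 5 times in the Oxt promoter, starting 184, 166, 160, 102 and 83 bases before that start, and did not stand in the Avp promoter. At least 1 match is in 35.2% of 32851 mouse promoters of this length, and 5 or more are in 14 of them (0.0426%). The E-box letters CANNTG, the same on both strands, stood 3 times in the Avp promoter and once in the Oxt promoter, and 66.2% of promoters hold at least 1 and 12.2% hold 3 or more. CATAAA, searched on both strands, stood once in each, starting 27 bases before that start of Oxt and 14 bases before that of Avp, and 10.8% of promoters hold it. TATAAA and TGACG, searched on both strands, stood in neither, where 12.4% and 17.8% of promoters hold them. CATAAA and TATAAA share the letters ATAAA, and the reverse complement of GGTCA shares TGAC with TGACG. A match describes letters, not binding.

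Oxt, the gene of the oxytocin precursor, was near the limit of detection in the 6 sets with whole reads. Among the 143 libraries with recovered whole reads it had a median of 2 reads, and 139 libraries had under 10. It was at 0 in 30 of them, where 3 reads, the upper limit that a count of 0 allows, correspond to 2.33 to 4.16 normalised reads. These limits cover counting error only. Across the 22 female VTA libraries Oxt ran from 0.855 to 17.4 normalised reads with a median of 2.41, the highest median of the normalised sets. In male HIP it ran from 0 to 12.4 (median 2.21), in male PFC from 0 to 4.42 (median 1.90) and in female PFC from 0 to 6.37 (median 1.56). In male NAc it ran from 0 to 53.6 (median 1.03) and in female NAc from 0 to 8.12 (median 0.976). The spreads of neighbouring sets overlapped throughout. In male VTA, on the RPKM scale, Oxt ran from 0 to 2.26 with a median of 0.246. The mean exceeded the low-value limit for testing, 5 normalised reads or 0.05 RPKM, only in male VTA.

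Avp, the gene of the vasopressin precursor, was low as well, but was at 0 in only 6 of 143 libraries, where 3 reads correspond to 2.83 to 4.09 normalised reads. Its median was 4 reads, and 121 libraries had under 10. In female VTA it ran from 1.05 to 75.7 normalised reads with a median of 9.04, and in male HIP from 0.986 to 151 with a median of 5.10. The 2 sets with the widest spread also had the highest medians. Male NAc had 0 to 12.8 (median 4.47), male PFC 0 to 7.95 (median 4.43), female PFC 1.19 to 6.66 (median 3.13) and female NAc 0 to 8.12 (median 2.42). These 4 sets overlapped almost fully. In male VTA Avp ran from 0.153 to 4.54 RPKM with a median of 0.528.

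**Figure D1:**
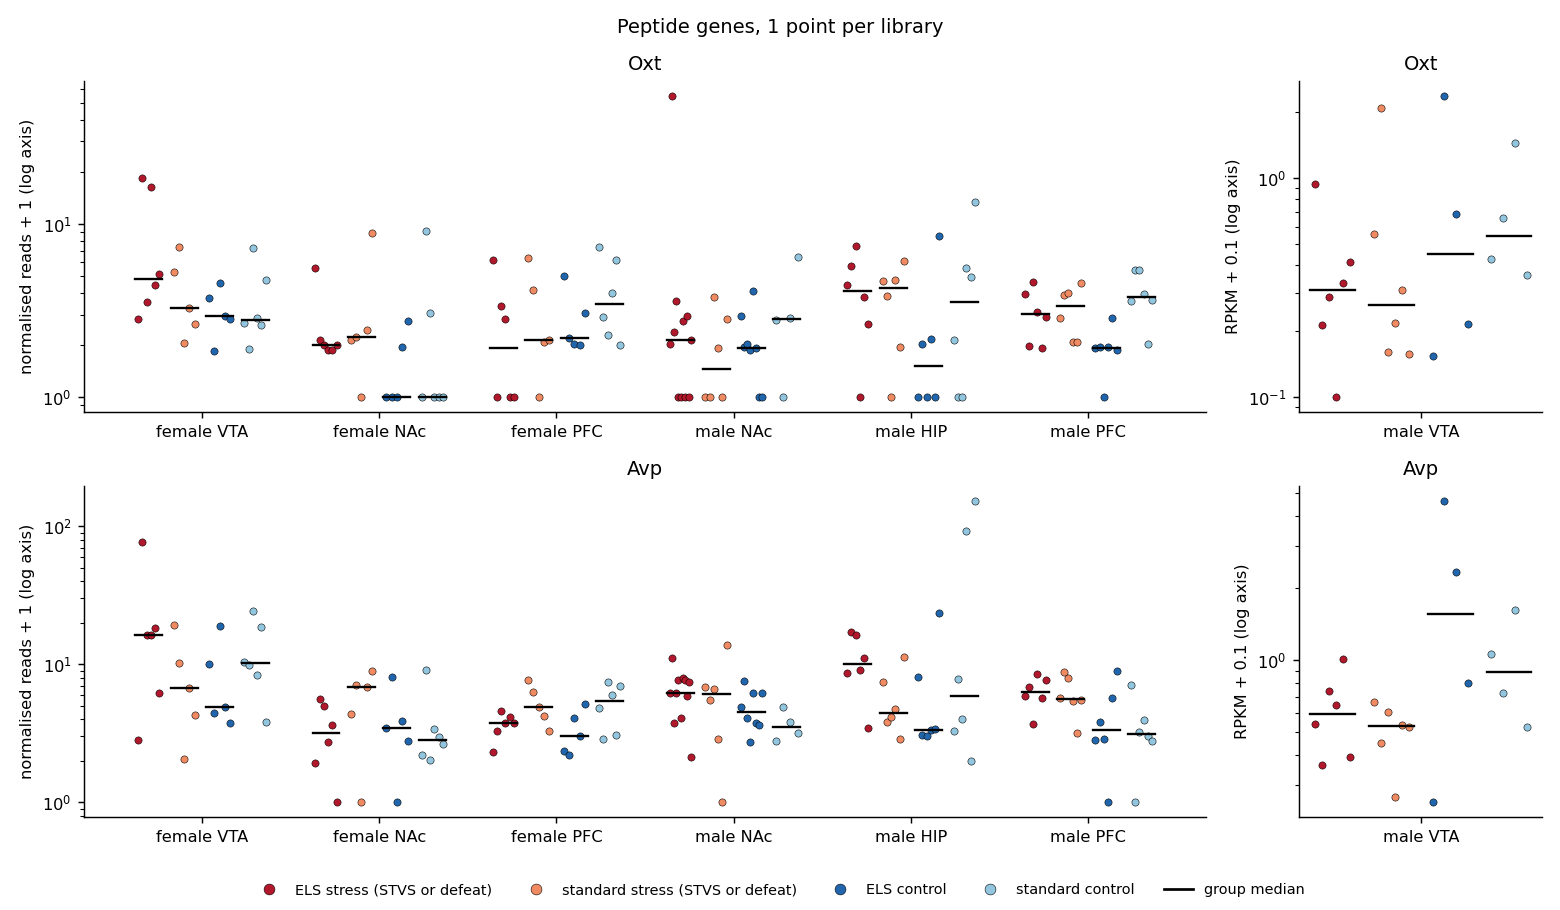
Levels of Oxt and Avp in each library of the 7 sets, by group, on a log axis of normalised reads + 1 (RPKM + 0.1 for male VTA); points are libraries, and male NAc combines the 2 ELS windows. Most libraries sit at a few normalised reads, and the high points are single libraries, such as 53.6 for Oxt in male NAc and 151 for Avp in male HIP.

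Single libraries carried the upper end of both peptide genes. The male NAc library ELS P10-20 defeat 2 held 53.6 normalised reads of Oxt from 64 reads, while the other 5 libraries of its group held 0 to 2.62. Its Avp was 10.1, and the summed level of the hypothalamic peptide genes, 381, was the highest of the 29 male NAc libraries. In female VTA, ELS STVS 2 held the highest Oxt (17.4) and Avp (75.7), with a hypothalamic peptide sum of 301 in a set that ran from 149 to 1089. The library at 1089, ELS control 3, had 592 normalised reads of Hdc, the histamine-making enzyme of the posterior hypothalamus. It also had 182 of Pmch and 22.2 of Hcrt. Its Oxt was 3.56 and its Avp 17.8, both the highest of its group, against set medians of 2.41 and 9.04. In male HIP the highest Avp values, 151 and 92, belonged to standard controls 6 and 4, whose Ttr was 214600 and 250300. ELS defeat 2 and 5 and standard control 1 had Ttr of the same order, 164700, 124400 and 171500. Their Avp was 16.1, 10.2 and 2.29 normalised reads in that order, where the median of the male HIP set was 5.10. In male VTA the highest Oxt (2.26 RPKM) and Avp (4.54 RPKM) were both in ELS control 2, the library with the lowest sum of dopamine genes (510 RPKM, in a set that ran to 1524). The part of neighbouring tissue in these values was not tested. In bulk tissue, more cells of a type and more RNA per cell cannot be told apart.

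Oxt and Avp were high in the same libraries in some sets, and in others no such relation could be called. The relation was computed on the log2 scale within each of the 7 sets after subtracting group means, with two-sided permutation tests (100000 resamples) adjusted over the 7 sets. In female VTA Pearson's r was 0.65 over 22 libraries (p = 0.00109, adjusted p = 0.00458), Spearman's rho was 0.61 (permutation p = 0.00315, adjusted p = 0.0148), and r was 0.59 (adjusted permutation p = 0.0238) without the 2 libraries farthest from the median of Oxt. In male HIP r was 0.61 over 24 libraries (permutation p = 0.00131, adjusted p = 0.00458), rho was 0.57 (permutation p = 0.00422, adjusted p = 0.0148), and r without the 2 farthest libraries was 0.59. Leaving out the 6 doubted male HIP libraries gave r = 0.41 (adjusted permutation p = 0.203), where the call was lost. In female VTA r was 0.58 without the doubted libraries (adjusted permutation p = 0.0485).

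In the other sets r was lower. In male VTA r was 0.53 over 20 libraries (permutation p = 0.0154, adjusted p = 0.0360), but rho was 0.49 (permutation p = 0.0309, adjusted p = 0.0721) and r without ELS control 2 and standard defeat 2 was 0.49 (adjusted permutation p = 0.0912). The male VTA r was about as large without those libraries, but the call was lost. In female NAc r was 0.41 and rho 0.37 (permutation p = 0.0571 and 0.0935, adjusted p = 0.0999 and 0.164), and r fell to 0.15 without the 2 farthest libraries. In male NAc r was 0.26 and rho 0.14 (permutation p = 0.171 and 0.465, adjusted p = 0.239 and 0.651), with r at 0.18 without the 2 farthest. In male PFC r was 0.01 and rho 0.08 (permutation p = 0.950 and 0.723, adjusted p = 0.950 and 0.723), and in female PFC r was -0.12 and rho -0.10 (permutation p = 0.609 and 0.669, adjusted p = 0.710 and 0.723). Without the 2 farthest libraries r was -0.02 in male PFC and -0.11 in female PFC. Oxt reached at most 4 reads in male PFC, 5 in female PFC and 8 in female NAc, which limits what r can show there. No test compared r between sets. The part of the shared neurophysin reads in the relation was not tested.

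**Figure D2:**
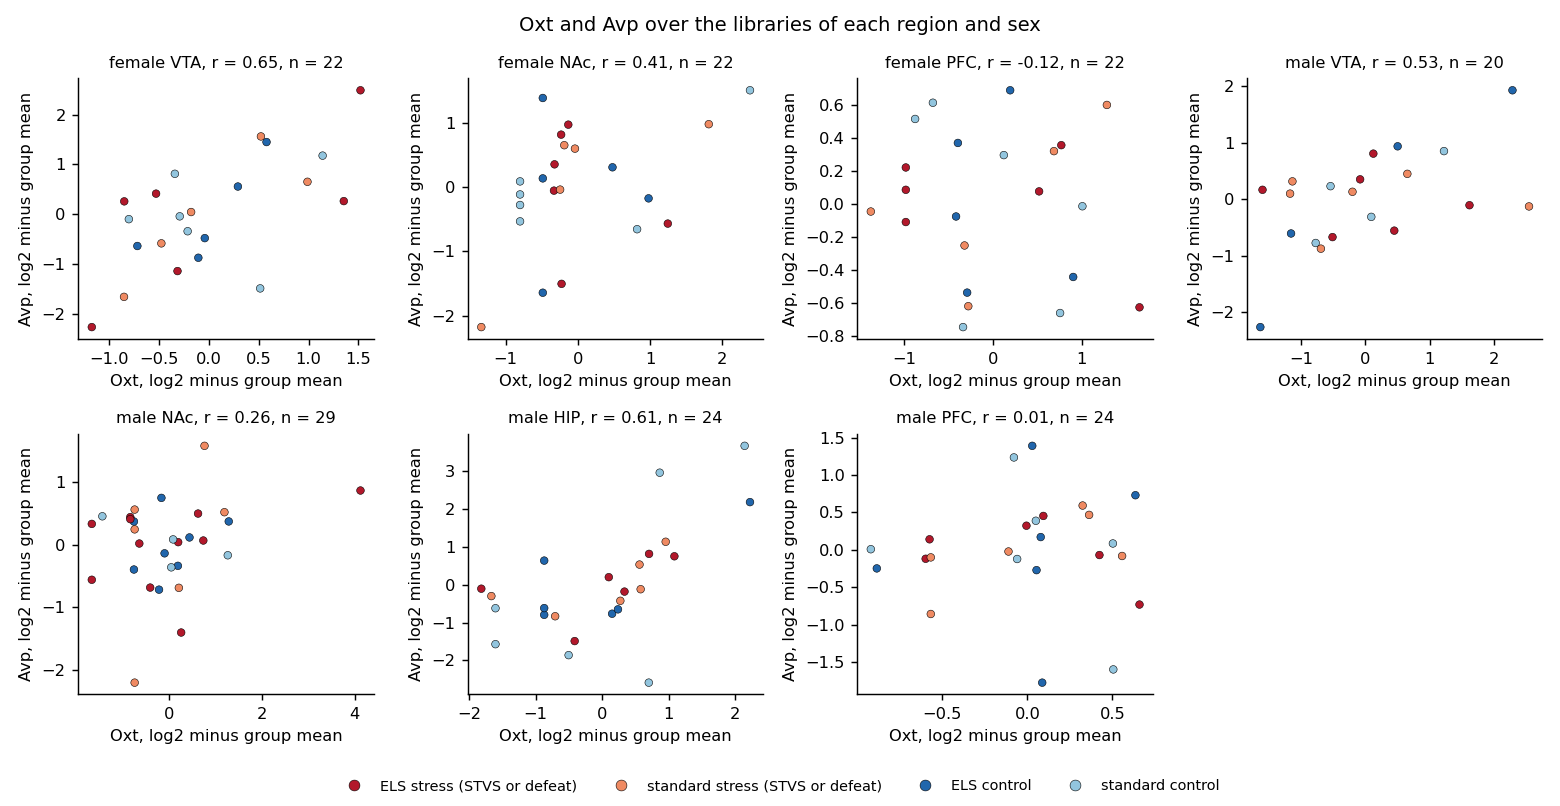
Avp against Oxt in each library, 1 panel per set, as log2 values of normalised reads + 1 (RPKM + 0.1 for male VTA) minus the group mean, coloured by group with the male NAc windows combined. Libraries high in Oxt are also high in Avp in female VTA (r = 0.65), while the female PFC panel shows no such run (r = -0.12).

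Across female regions, Avp was higher in VTA. With medians of 9.04 normalised reads in VTA and 2.42 in NAc, the difference was 1.42 ± 0.28 on the log2(value + 1) scale (SE, 95% interval 0.85 to 1.98, limma with Benjamini-Hochberg adjusted p = 7.86e-06). Against the PFC median of 3.13 it was 1.14 ± 0.28 (interval 0.57 to 1.71, limma adjusted p = 2.32e-04). The ranges overlapped in both comparisons, since the lowest VTA library held 1.05 normalised reads. NAc and PFC differed by -0.28 (interval -0.84 to 0.29, limma adjusted p = 0.369). Oxt did not reach the low-value limit, and without that limit the VTA to NAc difference was 1.01 ± 0.27 (limma adjusted p = 8.02e-04, where 59.9% of all genes were called) and the VTA to PFC difference 0.56 (limma adjusted p = 0.0682, where 57.7% were called).

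Avpr1a, the V1a receptor, showed a far steeper regional difference than the peptides. In female VTA it ran from 66.2 to 295 normalised reads (median 209), against 3.46 to 85.5 in female NAc (median 16.5) and 5.19 to 18.2 in female PFC (median 10.03). Every VTA library exceeded every PFC library, and the VTA and NAc ranges met only where the lowest VTA library, at 66.2 and doubted here (standard control 3), fell under the highest NAc library, at 85.5. The VTA to NAc difference was 3.58 ± 0.25 on the log2(value + 1) scale (SE, interval 3.08 to 4.09, limma adjusted p = 7.87e-20), a 12-fold difference. The VTA to PFC difference was 4.16 ± 0.25 (interval 3.65 to 4.66, limma adjusted p = 1.15e-22), 17.8-fold. NAc exceeded PFC by 0.57 ± 0.25 (interval 0.07 to 1.08, limma adjusted p = 0.0349), a call lost with quantile normalisation (adjusted p = 0.0777) and when any of 10 single libraries was left out. Leaving out female NAc standard control 2 gave the lowest difference, 0.46. In males Avpr1a ran from 3.48 to 23.1 normalised reads in HIP (median 11.5) and from 1.92 to 25.3 in PFC (median 11.8). These did not differ beyond their spread (0.09 ± 0.18, interval -0.27 to 0.46, limma adjusted p = 0.664). In male VTA, on the RPKM scale, it ran from 0.383 to 2.27 with a median of 1.54.

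Oxtr, the oxytocin receptor, was well above the limit of detection, with at least 90.2 normalised reads in each library of the 5 whole-read sets that measured it. In female VTA it ran from 122 to 302 (median 161), in female NAc from 90.2 to 428 (median 173) and in female PFC from 153 to 308 (median 233). The 3 ranges overlapped over most of their width. VTA was lower than PFC on the log2 scale (-0.395 ± 0.126, interval -0.65 to -0.14, limma adjusted p = 0.00356), while VTA and NAc differed by -0.12 ± 0.13 (interval -0.37 to 0.13, limma adjusted p = 0.373). NAc was lower than PFC (-0.28 ± 0.13, interval -0.53 to -0.02, limma adjusted p = 0.0417). That call was lost without the 10 libraries whose adult label was misfiled (adjusted p = 0.0908), by edgeR (-0.19, adjusted p = 0.154), without a low-value limit (adjusted p = 0.0579) and without any of 19 single libraries.

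The highest Oxtr level was in male HIP. It ran from 313 to 1083 normalised reads there (median 585), against 166 to 344 in male PFC (median 200). The tails met, since the lowest HIP library, at 313, lay under the highest PFC library, at 344. The difference was 1.38 ± 0.10 (interval 1.18 to 1.58, limma adjusted p = 3.28e-16), 2.59-fold, and stayed between 1.33 and 1.41 when single libraries were left out. Avp was also higher in male HIP than in male PFC, with medians of 5.10 and 4.43, by 0.77 ± 0.34 (interval 0.07 to 1.47, limma adjusted p = 0.0475). The Avp call was lost without any of 28 of 48 single libraries, and without standard control 6 the difference was 0.58. Without the doubted libraries Avp fell under the low-value limit and was not tested. In male VTA Oxtr ran from 0.586 to 1.97 RPKM with a median of 1.01.

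These counts stand against broad regional differences over all genes. In VTA against NAc 2 of the 3 genes tested were called, with 86.3% of all genes called. In VTA against PFC 3 of 3 were called, with 84.6% of all genes. In NAc against PFC 2 of 3 were called, with 79.4% of all genes, and in male HIP against PFC 2 of 3, with 66.1% of all genes. A call between regions does not set these genes apart from other genes.

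**Figure D3:**
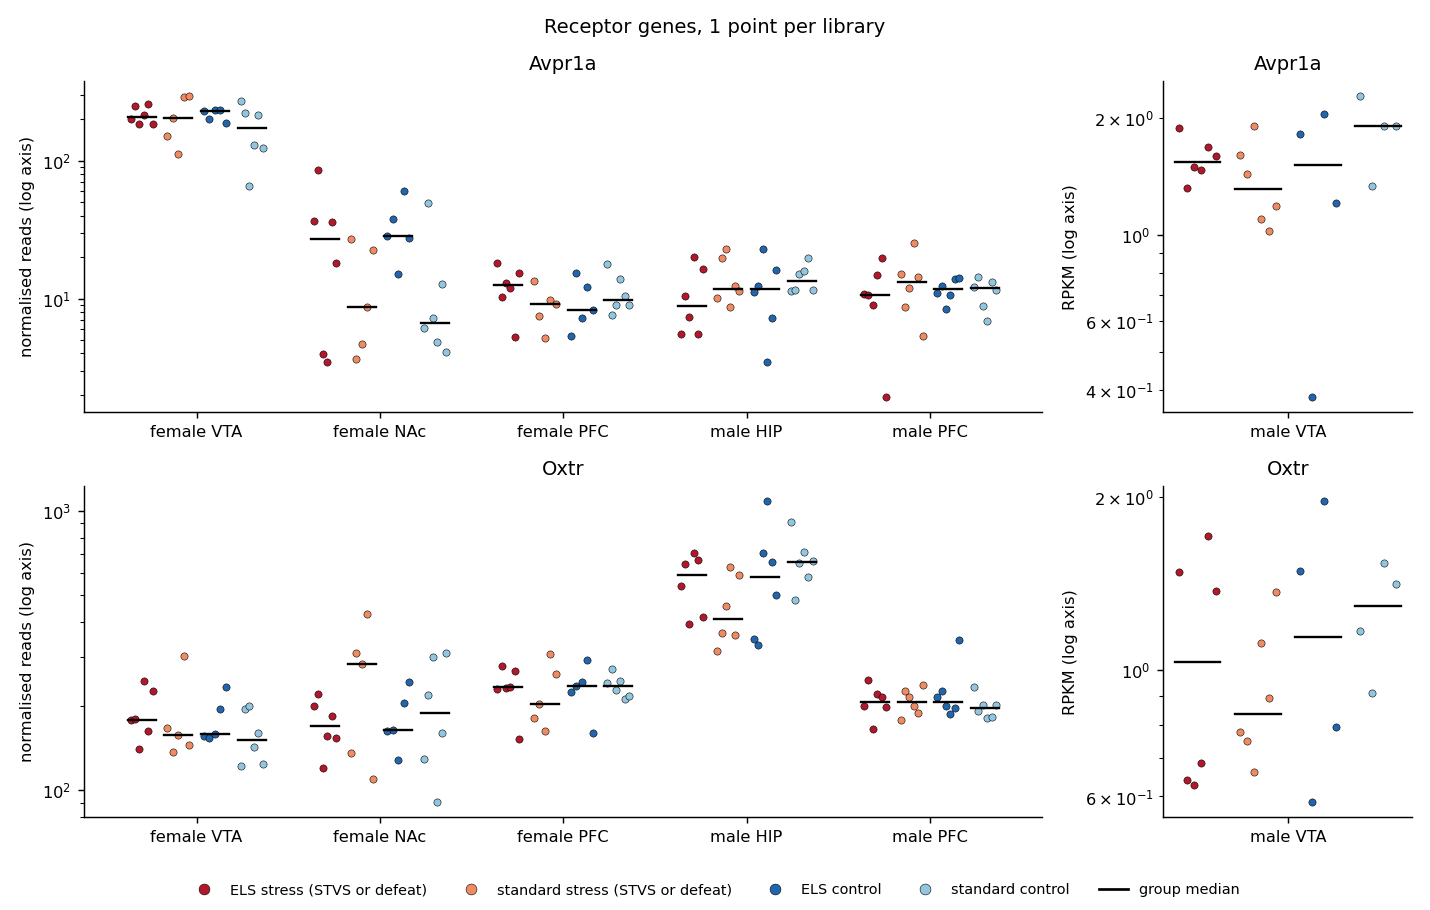
Levels of Oxtr and Avpr1a in each library of the 6 sets that measured them, by group, on a log axis of normalised reads (RPKM for male VTA); points are libraries. Avpr1a sits between 66.2 and 295 in female VTA and between 5.19 and 18.2 in female PFC, while Oxtr is highest in male HIP, at 313 to 1083.

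Levels of different genes were set side by side per kilobase of exon on the RPKM scale, with exon lengths of 537 bases for Oxt, 577 for Avp, 5120 for Oxtr and 2671 for Avpr1a. On this scale the female VTA medians were 2.68 for Avpr1a, 1.09 for Oxtr, 0.532 for Avp and 0.154 for Oxt. Male VTA gave the same order in the authors' RPKM, with medians of 1.54, 1.01, 0.528 and 0.246. In female NAc Oxtr led at 1.18, ahead of Avpr1a at 0.208, Avp at 0.142 and Oxt at 0.0624. Female PFC medians were 1.46 for Oxtr, 0.172 for Avp, 0.119 for Avpr1a and 0.0919 for Oxt. Male HIP medians were 3.84 for Oxtr, 0.290 for Avp, 0.147 for Avpr1a and 0.138 for Oxt. Male PFC medians were 1.25 for Oxtr, 0.246 for Avp, 0.140 for Avpr1a and 0.114 for Oxt. In male NAc the medians were 0.422 for Avp and 0.102 for Oxt. By these medians both receptors exceeded both peptide genes in the VTA sets and in female NAc, and Oxtr alone exceeded them in PFC and HIP. The range of Oxtr stood clear of the other 3 genes in both PFC sets, and other neighbours in each order overlapped. The male VTA table was normalised separately, so its levels are set beside the others without a test.

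**Figure D4:**
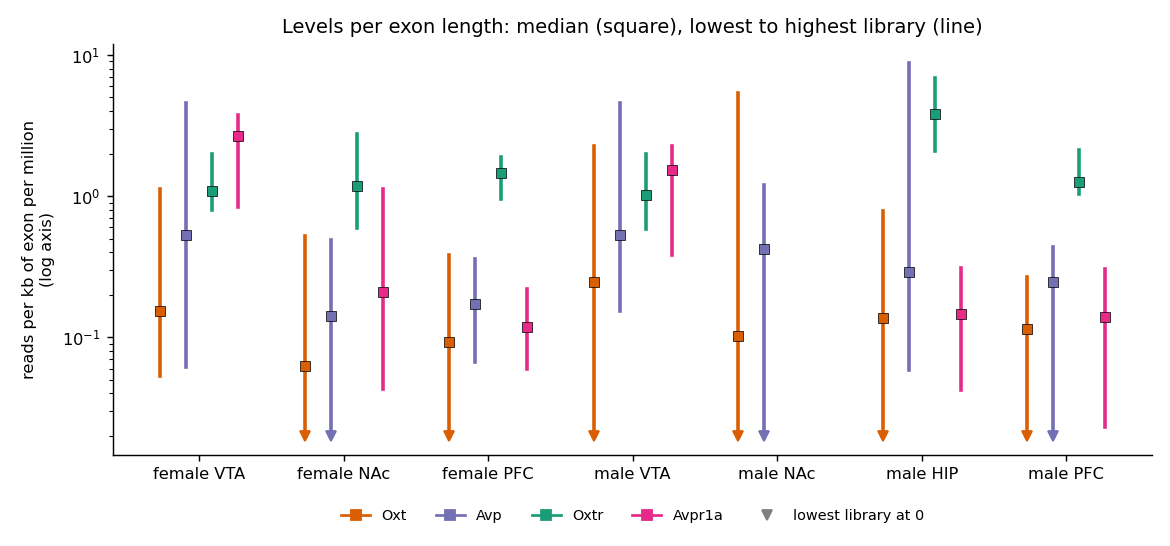
Level of each gene per kilobase of exon on the RPKM scale in the 7 sets, on a log axis; squares are medians over libraries, lines run from the lowest to the highest library, and an arrowhead marks a lowest library at 0. Avpr1a leads in both VTA sets (2.68 in female VTA), and Oxtr leads in female NAc, both PFC sets and male HIP (3.84 in male HIP). In male NAc, where the receptors were not analysed, Avp lies above Oxt.

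The sexes could be compared in PFC, where female and male standard controls were in 1 table. Oxtr averaged 236 ± 21.7 normalised reads in female standard controls and 199 ± 19 in male standard controls (SD, n = 6 each), with overlapping ranges of 211 to 271 and 181 to 233. The difference was 0.25 ± 0.14 (interval -0.03 to 0.53, limma adjusted p = 0.785). Male standard controls 1 and 4 were doubted, with 559.5 and 243.4 normalised reads of Xist. Without control 1 the Oxtr difference was 0.293, the highest with 1 library left out, and was not called. Avpr1a averaged 11.3 ± 3.87 in females and 11.2 ± 2.82 in males, a difference of -0.01 (interval -0.66 to 0.65, limma adjusted p = 0.999). None of the 2 genes tested was called, with 0.0671% of all genes called. Female and male mice came from separate cohorts, so sex and cohort cannot be told apart.

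Stress was the study's main question, and 49 comparisons of ELS, adult stress and their combination were tested across the 7 sets. With limma, none of 96 tests of the 4 genes passed the adjusted threshold of 0.05, where 0% of all genes passed in each of the 49 comparisons. At an unadjusted p under 0.05 there were 2 of 96, where 1.74% to 14.6% of all genes passed by comparison. In the sets with whole reads, edgeR also called 0 of them. No pair of groups was free of overlap for any of the 4 genes among those 96 tests. Fitted differences ran from -0.58 to 0.56 for Oxtr and from -0.83 to 1.61 for Avpr1a on the log2 scale. The 95% intervals show what the design could resolve, since they reached 0.335 to either side for Oxtr in male PFC at their widest and 2.51 for Avp in male HIP. A p that misses the threshold does not show that the groups were alike.

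**Figure D5:**
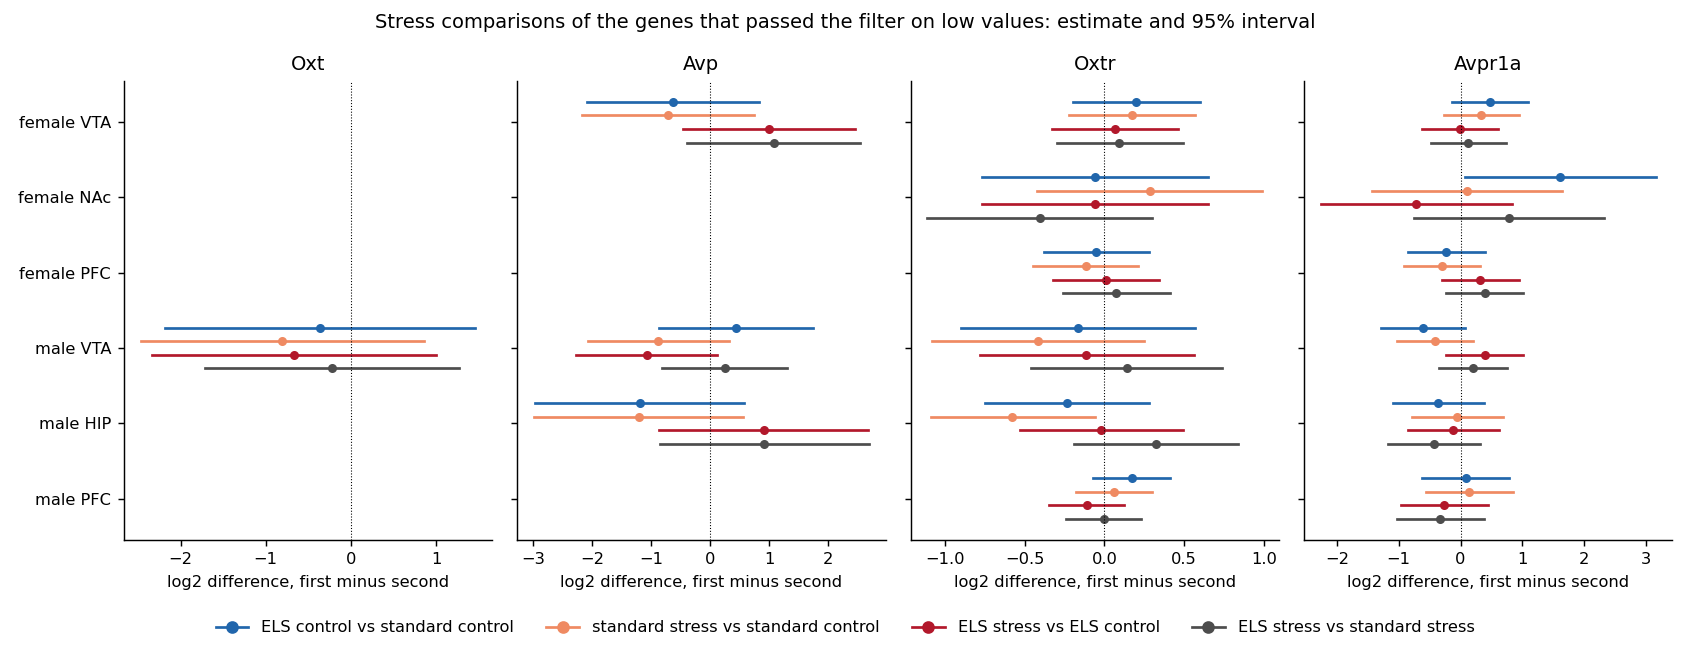
Fitted log2 differences with 95% intervals for the genes that passed the low-value limit, in 4 stress comparisons per set, without male NAc, where neither peptide gene passed. Intervals of the receptors are narrower than those of the peptide genes in each set that tests both, and the ones that miss 0 are Oxtr in male HIP standard defeat (-1.09 to -0.06) and Avpr1a in female NAc ELS control (0.07 to 3.16), both against standard control.

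Oxtr in male HIP gave the first of the 2 unadjusted results. Standard-reared defeated males held 313 to 626 normalised reads (median 411), against 480 to 912 in standard controls (median 654). The lower libraries of the defeated group lay below every control, and the upper ones lay among the controls. Means were 452 ± 130 and 665 ± 144 in the same order (SD, n = 6 each). The difference was -0.58 ± 0.25 (interval -1.09 to -0.06, limma adjusted p = 0.336), and leaving out single libraries gave -0.68 to -0.48. Without the doubted libraries it was -0.37 (limma adjusted p = 0.999). Choroid plexus RNA moved with the same groups, with sums of 7 of 7 listed genes at 327 to 836 normalised reads in standard defeat and 437 to 279114 in standard control, and its part was not tested. In ELS males the defeated group averaged 560 ± 133 and the controls 603 ± 281 (difference -0.02, limma adjusted p = 0.988), and the interaction was 0.56 ± 0.35 (limma adjusted p = 0.540).

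Avpr1a in female NAc gave the other. ELS controls held 15, 27.3, 28.3, 38.1 and 60.1 normalised reads, against 4.12 to 49.7 in standard controls (median 6.69). The 5 ELS controls lay above the control median, but 1 standard control, at 49.7, exceeded 4 of them. The difference was 1.61 ± 0.74 (interval 0.07 to 3.16, limma adjusted p = 0.454), and leaving out single libraries gave 1.38 to 2.07. ELS STVS females held 3.46 to 85.5 (median 27) and standard STVS females 3.66, 4.71, 8.76, 22.7 and 27.2, so both ELS groups had the higher median. Without the misfiled libraries the ELS control difference was 1.34 (limma adjusted p = 0.652), and that of ELS STVS against ELS control was 0.65 where all libraries gave -0.72, neither called. Cortical neuron genes moved the other way, with sums of 7 of 7 listed genes at 2243 to 4693 in ELS controls (median 2328) and 2173 to 16023 in standard controls (median 6197). The part of dissection in this was not tested.

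Oxtr in female NAc spread widely in the standard-reared groups, at 110, 136, 282, 310 and 428 normalised reads in standard STVS and 90.2 to 310 in standard control (median 189). ELS STVS ran from 120 to 220 (median 170) and ELS control stood at 128, 162, 163, 205 and 243. The 4 groups overlapped, and the 6 comparisons were not called. In standard STVS the libraries at 282, 310 and 428 had cortical sums of 11904, 18355 and 14716, and those at 110 and 136 had 2085 and 2596. The standard controls at 299.5 and 310 had cortical sums of 14333 and 16023. The part of cortical RNA in these Oxtr levels was not tested. In female VTA Oxtr means were 189 ± 39.9 in ELS STVS, 182 ± 68.4 in standard STVS, 179 ± 35.0 in ELS control and 157 ± 34.0 in standard control. In female PFC they were 232 ± 43.4, 223 ± 59.9, 231 ± 47.2 and 236 ± 21.7 in that order of groups. In male PFC they were 208 ± 27.1 in ELS defeat, 207 ± 23.0 in standard defeat, 228 ± 58.7 in ELS control and 199 ± 19 in standard control. Within each of these sets the ranges of the 4 groups overlapped.

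Avpr1a in female VTA averaged 217 ± 32.1 normalised reads in ELS STVS, 210 ± 82.2 in standard STVS, 218 ± 21.1 in ELS control and 172 ± 77.0 in standard control. The standard STVS libraries stood at 111, 151, 203, 291 and 295, and the ELS controls at 190, 201, 230, 234 and 236. The ELS groups were the tighter, and the standard groups held both the lowest (66.2) and the highest (295) library. The lowest libraries of both standard groups, standard control 3 at 66.2 and standard STVS 3 at 111, were doubted. Without standard control 3 the difference of ELS control from standard control went from 0.481 to 0.238. Without standard STVS 3 that of ELS STVS from standard STVS went from 0.128 to -0.075. None of these was called. In male VTA the RPKM values of ELS controls were 0.383, 1.21, 1.81 and 2.04, against 1.34, 1.91, 1.91 and 2.27 in standard controls. The difference of -0.60 ± 0.32 (limma adjusted p = 1) was -0.14 without ELS control 2, the library low in dopamine genes. Defeated groups ran from 1.32 to 1.88 RPKM in ELS mice and from 1.02 to 1.90 in standard-reared mice. In male HIP and in both PFC sets the group medians of Avpr1a lay between 8.26 and 13.3 normalised reads.

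Among the peptides, Avp in female VTA was 1.84 to 75.7 normalised reads in ELS STVS (median 15.4), 1.05, 3.32, 5.68, 9.18 and 18.1 in standard STVS, 2.75, 3.42, 3.93, 9.12 and 17.8 in ELS control, and 2.80 to 23.1 in standard control (median 9.16). All 4 groups overlapped, and the interaction of 1.71 was not called (limma adjusted p = 1). In male VTA Avp was 0.263 to 0.912 RPKM in ELS defeat (median 0.493), against 0.153, 0.699, 2.23 and 4.54 in ELS control. The difference of -1.07 ± 0.57 (interval -2.27 to 0.12) was not called (limma adjusted p = 0.982).

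Avp in male HIP ran from 2.47 to 16.1 normalised reads in ELS defeat, 1.89 to 10.3 in standard defeat, 2.0 to 22.6 in ELS control and 0.986 to 151 in standard control. The interaction was 2.12 ± 1.21 (limma adjusted p = 0.503) and 0.14 without the doubted libraries, among them the standard controls at 92 and 151. The difference between standard defeat and standard control was -1.21 ± 0.86 and turned to 0.38 without them. In male NAc Avp did not reach the low-value limit, and its group medians were 5.19 in ELS P10-20 defeat, 6.50 in ELS P2-12 defeat, 5.04 in standard defeat, 3.51 in ELS P10-20 control, 3.97 in ELS P2-12 control and 2.50 in standard control. The ranges of these groups overlapped.

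Oxt could be tested in male VTA. It was 0 to 0.835 RPKM in ELS defeat (median 0.209) and 0.0570 to 1.97 in standard defeat (median 0.163), against 0.055, 0.116, 0.583 and 2.26 in ELS control and 0.262, 0.325, 0.56 and 1.35 in standard control. The groups overlapped, and the 6 fitted differences lay between -1.03 and 0.14 with limma adjusted p of at least 0.785.

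Below the low-value limit, 74 tests of the peptide genes fitted without that limit gave 0 adjusted calls, with 6 (8.11%) at an unadjusted limma p under 0.05, against 2.83% to 10.8% of all genes in the same comparisons, so that share is no result about the peptide genes. Oxt in male PFC was 0 to 1.87 normalised reads in ELS controls (median 0.932) and 1.02 to 4.42 in standard controls (median 2.81), a difference of -1.05 ± 0.33 (limma adjusted p = 1). Avp in male PFC was 2.72 to 7.44 in ELS defeat (median 5.34) and 0 to 6.11 in standard control (median 2.12), a difference of 1.03 (limma adjusted p = 0.745). Standard defeat, at 2.2 to 7.72 (median 4.58), differed from the same controls by 0.94 (limma adjusted p = 0.973). The interaction of Oxt in male PFC was 0.96 (limma adjusted p = 0.892). In female VTA Oxt was 1.84 to 17.4 in ELS STVS (median 3.79), against 0.855 to 3.56 in ELS control and 0.896 to 6.31 in standard control, with differences of 1.07 (limma adjusted p = 1) and 0.95 (limma adjusted p = 0.621). The ranges overlapped in each of these comparisons, and the values rest on few reads.

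Genes whose levels went most with each receptor are named for each set. Pearson's r was computed over the libraries of a set on the log2 scale with group means subtracted, as a description. For Avpr1a in female VTA the 3 highest were Calca (0.93), the gene of the peptide CGRP, Chrm5 (0.89), a muscarinic receptor of dopamine neurons, and Scg2 (0.88), a granule protein, over 22 libraries. In male VTA they were Frem1 (0.93), Ebf3 (0.93) and Nr4a2 (0.90), a transcription factor of dopamine neurons, over 20 libraries. In female NAc they were Stk32b (0.95), Mrap2 (0.93) and Maged2 (0.93). No gene was named in more than 1 of these sets. With 3 genes named of at least 17859 per set, this does not show that the genes going with Avpr1a differed. In the PFC sets and male HIP, where Avpr1a was at about 10 normalised reads, the highest r was 0.79.

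For Oxtr the highest in female VTA were Tpd52l1 (0.88), Ets2 (0.87) and Ogfod1 (0.86), in female NAc Fam19a1 (0.95), Gpc4 (0.93) and D4Bwg0951e (0.93), and in male HIP Ccnd1 (0.94), Amz1 (0.93) and Parp8 (0.92). In male VTA they were Star (0.96), Tmem181b-ps (0.93) and Acin1 (0.93), and in female PFC an unnamed gene (0.93), Hpcal4 (0.92) and Rasgef1a (0.91). In male PFC the highest was Rexo2 at 0.78. The libraries of a set share dissection and depth, and many genes are compared, so high values are common. Oxtr and Avpr1a went together in male VTA (r = 0.52). In the same libraries r was -0.35 for Avp with Avpr1a, -0.29 for Oxt with Avpr1a, -0.16 for Avp with Oxtr and -0.02 for Oxt with Oxtr. Among them, ELS control 2 held the lowest Avpr1a (0.383 RPKM) and Oxtr (0.586 RPKM) and the highest Oxt and Avp. These r values were not computed without it. In the other sets r between members other than Oxt with Avp ran from -0.28 to 0.12.

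The other genes of the pathway were read from 3 lists of 49 genes. Regions differ widely, and limma called 86.3% of all genes in female VTA against NAc, 84.6% in VTA against PFC, 79.4% in NAc against PFC and 66.1% in male HIP against PFC. Against these shares the counts of listed genes called are no result about the lists, and are given as a description. Of 13 genes that cut, amidate and store peptides, 11 were higher and 1 lower in female VTA than in NAc (limma adjusted p under 0.05, median log2 difference 0.49 against 0.01 for all genes). Cadps2 (3.12 ± 0.13, adjusted p = 3.85e-30) and Cadps (1.76 ± 0.05, adjusted p = 1.94e-39), both priming factors of dense-core granules, and Chga (1.04 ± 0.04, adjusted p = 1.70e-35), a granule protein, had the smallest p. Against PFC, 5 were higher and 5 lower in VTA (median -0.07), with Scg2 higher by 2.08 ± 0.05 (adjusted p = 1.00e-42) and Pcsk2, a prohormone convertase, lower (-1.44 ± 0.06, adjusted p = 2.04e-32). In NAc 1 was higher and 11 lower than in PFC (median -0.60), and in male HIP 2 were higher and 6 lower than in PFC (median -0.18), among them Pcsk2 (-1.24 ± 0.06, adjusted p = 3.46e-22).

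Of the other receptors and the release and cleavage genes, 4 of 6 passed the low-value limit, and all 4 were higher in female VTA than in NAc and PFC. Cd38, whose enzyme serves oxytocin release in mice, was higher in VTA by 2.21 ± 0.09 against NAc (limma adjusted p = 1.06e-32) and 2.60 ± 0.09 against PFC (adjusted p = 2.30e-36), and in male HIP by 1.19 ± 0.07 against PFC (adjusted p = 8.66e-19). Lnpep, the oxytocinase that cuts both hormones, was higher in VTA than in NAc by 0.89 ± 0.08 (adjusted p = 9.98e-15). Of 29 receptor signalling genes tested, 9 were higher and 20 lower in VTA than in NAc (median -0.36), 6 higher and 21 lower in VTA than in PFC (median -0.56), 11 higher and 16 lower in NAc than in PFC (median -0.20), and 8 higher and 15 lower in male HIP than in PFC (median -0.13). Of all genes 86.3%, 84.6%, 79.4% and 66.1% were called in that order, so the counts of both lists are no result about them. Camk4 (-2.78 ± 0.05, adjusted p = 1.03e-51) and Ppp3ca (-2.61 ± 0.04, adjusted p = 8.46e-57), calcium-dependent enzymes of forebrain neurons, were lower in VTA than in NAc. Itpr1, the inositol trisphosphate receptor downstream of Gq, was lower in male HIP than in PFC (-1.36 ± 0.07, adjusted p = 1.13e-20). In the 49 stress comparisons, limma called 0 of the genes in these lists, and list medians lay between -0.30 and 0.51 on the log2 scale, against -0.03 to 0.04 for all genes tested.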

How the data were processed

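Unstranded TruSeq libraries of poly-A RNA gave single-end reads, per the labels' protocols. For female tissue, male PFC, male HIP and male NAc the authors deposited a signal in normalised reads, gene counts divided by 1 factor per library. The submitters' processing notes name HISAT, HTSeq and build mm10 for these. The male VTA values were deposited by the authors as RPKM, and for them the notes list mm9, mm10, MACS2 2.1.1, SAMtools 0.1.19, Bowtie2 2.2.0, HTSeq and TopHat2. Positive normalised values were whole multiples of 1 read (100.0%, tolerance 0.001), which gave reads and depth.

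Groups of the 163 RNA libraries came from titles and characteristics. For 10 female NAc libraries the adult label repeats the sex, so their titles gave the group. Chromatin and input samples (16) were left out. The 328 pairs of libraries of 1 group differed by more than sampling noise (lowest chi-square per gene 2.80).

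Each set was fitted in R 4.3.3 by limma 3.58.1, with the trend and robust options, on log2(value + 1), or log2(RPKM + 0.1), with Benjamini-Hochberg adjustment over all genes with a mean of at least 5 normalised reads or 0.05 RPKM. The design allowed for counts, and as values were normalised limma was used. These fold changes understate changes of low genes. Alternatives were no limit, the 14000 genes of highest mean (0.5 RPKM), a pseudocount of 0.5 (1 RPKM), quantile normalisation, edgeR 4.0.16 on recovered reads, a replicate block, leaving out single or misfiled libraries and, chosen after seeing the data, leaving out 14 doubted libraries. Correlations used SciPy 1.17.1 in Python 3.11.15. The fits were tested on simulated data with changes planted only in genes above the mean levels of Oxt and Avp. That check says nothing about how well changes of the peptide genes are found. The same holds for Avpr1a outside female VTA and for Oxtr in male VTA, whose means also lay below those of the planted genes. The members and lists were chosen with earlier results of these data known. Named from each list were at most the 3 genes of smallest p in a comparison, and from likeness the 3 of highest r.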

Additional observations from a re-analysis of the deposited data

Results flagged for a closer look

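Dixon's test on the log2 scale was run within groups of 4 to 6 libraries. By chance it flags about 1 in 20 groups of normally distributed values, which counts of a few reads need not be. In 9 of 108 groups of 1 gene it flagged a library far from the rest. For Oxt these were male NAc ELS P10-20 defeat 2 at 53.6 normalised reads (the others 0 to 2.62), male HIP ELS control 6 at 7.55 (0 to 1.16) and female NAc ELS STVS 1 at 4.57 (0.865 to 1.14). For Avp they were female NAc standard control 2 at 8.12 (1.04 to 2.42) and male NAc ELS P2-12 defeat 5 at 1.13 (4.92 to 6.97). For Oxtr they were female VTA standard STVS 4 at 302 (137 to 167), female PFC ELS STVS 6 at 153 (231 to 277) and male PFC ELS control 6 at 344 (187 to 226). For Avpr1a it was male PFC ELS defeat 6 at 1.92 (9.06 to 19.7). Female NAc ELS STVS 1 was among the doubted libraries, with 40770 normalised reads of Ttr. Of 120 pairs of effects (the same stress comparison in 2 regions of 1 sex, without male NAc), 0 had all libraries on opposite sides. Effects were not compared between the sexes. This was not a test.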

How the results depend on the processing

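Of 3654 values of the 4 genes under the alternatives, 3580 kept their direction and side of the threshold or moved by less than the spread, 63 lost a call, 11 moved and 0 reversed a call. The lost calls concern Oxtr and Avpr1a in NAc against PFC and Avp in male HIP against PFC. Genes called over the stress comparisons, 0 in each set, became 1 in female VTA and 1 in male NAc without a low-value limit. Leaving out single libraries gave 0 to 95 called genes in male NAc (95 without ELS P10-20 control 3), 0 to 4 in female NAc, 0 to 1 in female PFC and in male HIP, 0 to 2 in male PFC and 0 to 5 in male VTA, and never 1 of the 4 genes. Of the 2 members called in NAc against PFC, 1 was left without the limit, with quantile normalisation, by edgeR and without the misfiled libraries, and 0 to 2 when single libraries were left out. In VTA against NAc 1 was left among the 14000 highest genes, where Avp was not tested. In male HIP against PFC 1 was left without the limit, among the 14000 highest genes, with quantile normalisation and without the doubted libraries, and 1 to 2 when single libraries were left out. The correlation of Oxt with Avp lost its call in male VTA by Spearman's rho (0.49) and without the 2 farthest libraries (0.49), and in male HIP without the doubted libraries (0.41). For Avp in male HIP, standard defeat against standard control was -3.14 by edgeR and 0.38 without the doubted libraries, neither called. Without the misfiled libraries Avpr1a in female NAc ELS STVS against ELS control was 0.65, not called. The other causes were not tested. Depth limits Oxt and Avp, at a median of 2 and 4 reads, and for male VTA it is unknown.

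The main fits did not pair libraries by replicate number. Same-numbered libraries deviated together with a median r of 0.261 in female VTA, 0.212 in female PFC and 0.143 in female NAc. Other-numbered libraries gave -0.073, -0.044 and -0.024 in that order. In male VTA, male PFC and male HIP the same-numbered medians were 0.095, 0.057 and -0.005, against -0.022, -0.018 and -0.015. Each set had negative same-numbered pairs. Whether libraries of the same number share a batch was not tested. With the replicate number as a block, 0 genes were called over the stress comparisons in each set fitted with it, Oxtr in male HIP standard defeat against standard control stayed at -0.58 (limma adjusted p = 0.314), and no call on the 4 genes changed. Between regions the block had a consensus correlation of 0.046 in females and 0.063 in males.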

Other observations

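Factors of the magnocellular lineage, which also mark other hypothalamic and midbrain neurons, were read in the same libraries. In female VTA 6 of 7 tested were higher than in NAc by limma (median log2 difference 1.72 against 0.01 for all genes), and 6 were higher and 1 lower than in PFC (median 3.14). Of all genes 86.3% and 84.6% were called in these comparisons, so the counts are no result about the list. Otp, a homeobox factor needed for the magnocellular neurons of mice, was higher in VTA by 7.25 ± 0.26 against NAc (limma adjusted p = 1.06e-34) and 7.60 ± 0.26 against PFC (limma adjusted p = 8.01e-36), and Sim1 by 5.40 ± 0.24 against PFC (limma adjusted p = 4.58e-30).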
